A study of Mus musculus with 10 samples.

Results

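The regions described here are p63 peaks at the edges of protein-coding genes in cultured mouse keratinocytes. A peak is a stretch of genome that a ChIP-seq experiment (chromatin immunoprecipitation followed by sequencing) marks as occupied by a protein. The peaks were chosen by position alone: on chromosomes 1 to 19, the midpoint had to lie within 1 kb of either end of a protein-coding gene, by RefSeq gene extents on mm10. Of 8294 peaks on those chromosomes, 642 qualified (7.74%, 95% Wilson interval 7.19 to 8.33, which covers counting error only), out of 8451 in the whole list. The other 7652 peaks divided into 4070 inside a gene and over 1 kb from an end, 1790 between genes at 1 to 25 kb from one, and 1792 farther away.

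The peaks come from 2 mouse keratinocyte lines, MK1 and MK2, described as similar to each other, with 1 p63 ChIP library from each, precipitated with the 4A4 antibody. No treatment, genotype or time is given in the labels. Both libraries went into 1 list of positions without peak heights, so the lines cannot be compared, no spread between them can be given and the read depth behind a peak is unknown. The 6 histone mark libraries and 2 input libraries of the series were not analysed here.

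p63 is a p53-family transcription factor that basal keratinocytes need to build a stratified epithelium, and the 4A4 antibody recognises all of its isoforms. It binds as a tetramer to a pair of half-sites, each built around a C and a G with A or T bases between them, and it sits mostly at enhancers in keratinocytes. A peak that covers the start of a gene overlaps the promoter, where transcription begins. A peak at the far end has no such fixed role.

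Promoter sequences from RefSeq (GRCm38.p6, the assembly of mm10) show what some of these peaks cover. A reference window of 300 bases, 250 before an annotated start and 50 after it, was available for 20085 starts of 16457 protein-coding genes on chromosomes 1 to 19. In 133 of these windows, belonging to 122 genes, the start itself lay inside 1 of 120 boundary peaks. Of the windows below, which run from 250 bases before the start to 30 after it in the direction of the gene, Fxyd3 and Tmem140 are here because their peaks are centred almost on the gene's start. Cdkn1a, Aen and Bbs2 were chosen after their sequences were seen, because a pair of CWWG cores (W is A or T) with 6 bases between them lies within the peak, as in the p53-family site. Capitals mark the cores of such a pair, and Fxyd3 has none. The windows next in the order set beforehand were those of H2bc22, Lrp11, Birc2, Dcaf4, Inka1 and Lexm. They are not printed, and none of them held such a pair.
Fxyd3, chr7:31076668-31076947, strand -: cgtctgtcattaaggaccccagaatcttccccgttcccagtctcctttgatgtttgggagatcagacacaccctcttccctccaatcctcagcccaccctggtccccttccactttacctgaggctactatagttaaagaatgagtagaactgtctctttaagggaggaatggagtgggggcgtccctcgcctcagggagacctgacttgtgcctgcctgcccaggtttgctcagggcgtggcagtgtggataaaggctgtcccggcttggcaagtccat
Tmem140, chr6:34862896-34863175, strand +: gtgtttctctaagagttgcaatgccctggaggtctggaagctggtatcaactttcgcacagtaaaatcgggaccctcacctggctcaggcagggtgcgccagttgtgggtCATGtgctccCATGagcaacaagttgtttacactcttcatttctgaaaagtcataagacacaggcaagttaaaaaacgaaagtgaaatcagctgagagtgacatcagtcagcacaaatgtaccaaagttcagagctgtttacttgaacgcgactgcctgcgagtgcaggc
Cdkn1a, chr17:29090729-29091008, strand +: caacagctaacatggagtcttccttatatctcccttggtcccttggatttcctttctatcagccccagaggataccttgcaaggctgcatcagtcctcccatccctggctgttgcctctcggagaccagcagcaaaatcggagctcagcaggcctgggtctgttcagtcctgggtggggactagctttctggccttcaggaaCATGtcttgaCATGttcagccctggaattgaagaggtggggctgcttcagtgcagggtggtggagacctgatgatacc
Aen, chr7:78895677-78895956, strand +: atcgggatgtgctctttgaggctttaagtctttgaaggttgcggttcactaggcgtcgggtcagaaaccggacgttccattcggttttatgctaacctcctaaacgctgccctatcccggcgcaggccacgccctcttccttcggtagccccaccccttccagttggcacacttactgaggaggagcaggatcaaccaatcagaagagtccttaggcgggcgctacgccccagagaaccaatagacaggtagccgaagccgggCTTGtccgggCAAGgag
Bbs2, chr8:94098480-94098759, strand -: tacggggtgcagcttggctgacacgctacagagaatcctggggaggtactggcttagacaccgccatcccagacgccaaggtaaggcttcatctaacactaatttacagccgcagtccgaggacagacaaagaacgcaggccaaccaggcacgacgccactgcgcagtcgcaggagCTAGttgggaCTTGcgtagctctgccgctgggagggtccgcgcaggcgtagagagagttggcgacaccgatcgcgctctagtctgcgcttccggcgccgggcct

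The Cdkn1a pair has CATG in both cores and begins 48 bases before the gene's outermost annotated start. Which annotated start of a gene these cells use was not examined. Cdkn1a encodes the cell cycle inhibitor p21, and the centre of the pair lies 22 bp from the midpoint of its peak. In Aen, which encodes a p53-induced exonuclease, the pair begins 13 bases after the start and its centre is 59 bp from the peak midpoint. The Bbs2 pair is centred 3 bp from the midpoint of a 331 bp peak, and Bbs2 encodes a ciliary protein of the BBSome. That Bbs2 window belongs to an annotated start inside the gene, since the peak lies 796 bp inside the outermost one. In Tmem140, the CATG pair is centred 137 bp from the midpoint of the 187 bp peak and lies outside it.

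Over all promoter windows, 6.37% held a CWWG pair with 6 bases between the cores. Among the 133 windows whose start lay in a boundary peak, 29 held one (21.8%, interval 15.6 to 29.6). The p53-family half-site, searched on both strands, was in 28 of the 133 windows (21.1%, interval 15.0 to 28.7) and in 7.32% of all windows. A pair of CATG cores with the same spacing was in 6 of 133 (4.51%, interval 2.08 to 9.49) and in 0.722% of all windows, and every such pair is also counted as a CWWG pair. The looser pair of CNNG cores, which contains both of those, was in 122 of 133 (91.7%, interval 85.8 to 95.3) and in 75.4% of all. CATG on its own went the other way, with 62 of 133 (46.6%, interval 38.3 to 55.1) against 55.9%. No boundary-peak window held 2 adjacent perfect half-sites, which 1 window in the whole table did. The sequence of the pair is read the same on both strands. Within the 133 windows, pairs stood at 0.963 per 1000 positions wholly inside the peak (27 pairs) and 0.494 per 1000 elsewhere (5 pairs), with a median of 51 bp from centre to peak midpoint inside. A pair within reach of several annotated starts of a gene, as in Aen, was counted once for each. Since windows share genes and peaks, the intervals are too narrow. The median GC content of the 133 windows was 59.3%, against 56.7% in windows that no boundary peak touched, and its part in the difference was not tested. A match is a run of letters and not a measured site.

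The 642 peaks sat at gene starts more than at gene ends. The strand, and with it the start, was known for 16457 of 20560 protein-coding genes from the promoter table, and genes of chromosome 18 were not analysed here by strand or promoter. Of the 472 peaks within 1 kb of starts only or ends only, 329 were at a start and 143 at an end, which puts 69.7% at a start (interval 65.4 to 73.7). The bases within 1 kb of a boundary that could be assigned in the same way divided evenly, with 49.9% of them at starts. In density, that is 11.8 peaks per Mb of start-only bases and 5.09 per Mb of end-only bases. Another 20 peaks were within 1 kb of both a start and an end, and 150 were near a boundary whose strand was unknown.

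The highest counts were in the steps next to the start. Per 1000 starts, 6.20 peak midpoints lay in the last 250 bp before the start and 4.19 in the first 250 bp after it. The next 250 bp steps held 1.94 per 1000 before the start and 2.13 after it. Farther inside, the steps from 500 to 1750 bp held between 2.25 and 2.80 per 1000, and each step from 1750 to 5000 bp between 1.16 and 1.88. At gene ends the 250 bp steps next to the boundary held 1.34 per 1000 beyond the end and 1.22 inside it, with no rise at the end itself. Boundaries of unknown strand lay between, at 3.78 outside and 3.41 inside. Of the peaks whose nearest boundary was a start, 119 of 345 (34.5%, interval 29.7 to 39.7) covered that base with their own interval, and of those nearest to an end 25 of 153 did (16.3%, interval 11.3 to 23.0). No test was run on these profiles.

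**Figure D1:**
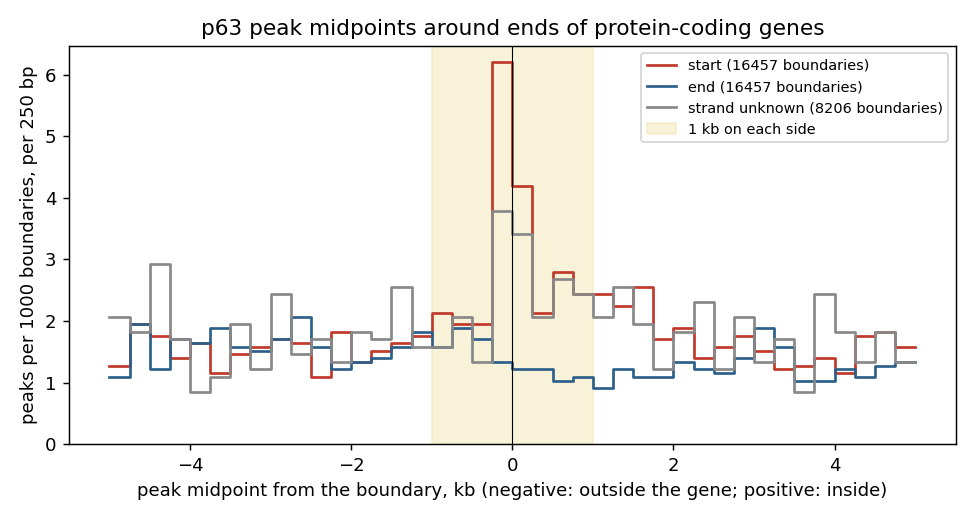
p63 peak midpoints per 1000 boundaries in 250 bp steps (vertical axis) against distance from the boundary in kb (horizontal axis, negative outside the gene), for 16457 starts, 16457 ends and boundaries of unknown strand, with the 1 kb zone shaded. The line for starts peaks at 6.20 just outside the gene, and the line for ends stays near 1.34 there.

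Peaks fell outside and inside genes about as the available bases did. Of the 642 midpoints, 55.5% were inside a protein-coding gene, where 55.2% of all bases within 1 kb of a boundary lie. Among peaks at a single gene, 140 of 300 at a start (46.7%, interval 41.1 to 52.3) and 55 of 132 at an end (41.7%, interval 33.6 to 50.2) were inside that gene. The nearest midpoints were those of Fxyd3, which encodes a regulator of the sodium pump, at 2 bp from its start, Vwa1 at 2.5 bp and Upk2, a uroplakin gene, at 3.5 bp from boundaries of unknown strand, and Ltb4r1, a leukotriene B4 receptor gene, at 3.5 bp from its end. Tmem140 followed at 4 bp, the histone gene H2bc22 at 5.5 bp, Lrp11 at 8.5 bp and Birc2, which encodes an inhibitor of apoptosis, at 10 bp, each at a start. Peaks at the starts of Dennd4a and Rnf123 tied with Birc2 at 10 bp. At the outer limit of the rule, Krt5 was included at 999 bp, Senp8 at 996 bp and Snap47 at 982.5 bp. Just left out were Gja1, the gene of connexin 43, at 1001.5 bp, Frrs1 at 1002.5 bp and Exosc7 at 1003.5 bp.

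These peaks lay at 680 protein-coding genes, 3.31% of the 20560 on chromosomes 1 to 19, and that share is the background for every count of genes below. The median length of the 680 genes was 18.9 kb, against 17.6 kb for all. Across chromosomes, boundary peaks made up from 2.90% of the peaks (chromosome 16, 10 of 345) to 10.9% (chromosome 7, 58 of 531). Chromosome 16 holds 679 protein-coding genes and chromosome 7 holds 2025, and the shares were not adjusted for gene number. Proximity does not show that a peak acts on the gene.

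By count, the p53 response list had the most genes with a boundary peak of the 20 lists examined. Of 29 such genes, 10 had one (34.5%, interval 19.9 to 52.7), against the 3.31% of all genes. By share, the list of basal and wound keratins was higher, at 42.9% of 7 genes, with Krt5 counted at 999 bp. The lists were chosen with earlier results of these data known, so these shares are a description only. The group spans the uses of the pathway. Cdkn1a, of the cell cycle arm, had 2 peaks at its outermost annotated start. One was 419 bp wide with its midpoint 19 bp outside, and the other was 260 bp wide, 843.5 bp inside. Mdm2, the ubiquitin ligase gene that limits p53, also had 2 at its start, 638 bp inside and 898.5 bp outside.

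Genes of apoptosis in that list with a boundary peak included Bax and Pmaip1. Bax, which encodes a pore-forming protein of mitochondria, had 1 peak at each end, 345 bp inside its start and 496 bp beyond its end. Pmaip1, which encodes the BH3-only protein Noxa, had 1 at 163.5 bp outside a boundary of unknown strand. Bcl2l11, which encodes the BH3-only protein Bim and was in no list, likewise had both ends marked, 166.5 bp before its start, where it shared the peak with Acoxl, and 752 bp beyond its end. Aen had its peak at 40 bp and Phlda3, which encodes an inhibitor of Akt, a 768 bp peak at 115.5 bp, both over the start.

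Other p53 response genes were Ccng1 (cyclin G1) with a midpoint 186.5 bp before its start, Sesn2 (a sestrin of the stress response) 675.5 bp inside its start and Trp53inp1 206 bp outside a boundary of unknown strand. Sfn, which encodes 14-3-3 sigma, had a 391 bp peak 503 bp before its start and a 582 bp peak 694.5 bp beyond its end. Its 1613 bp body itself held neither midpoint. None of 10 genes of the p53 family and its partners had a boundary peak. The Wilson interval runs up to 27.8%, with a limit of 30.0% if a count of 0 is read as up to 3 counts. That interval includes the 3.31% of all genes.

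**Figure D2:**
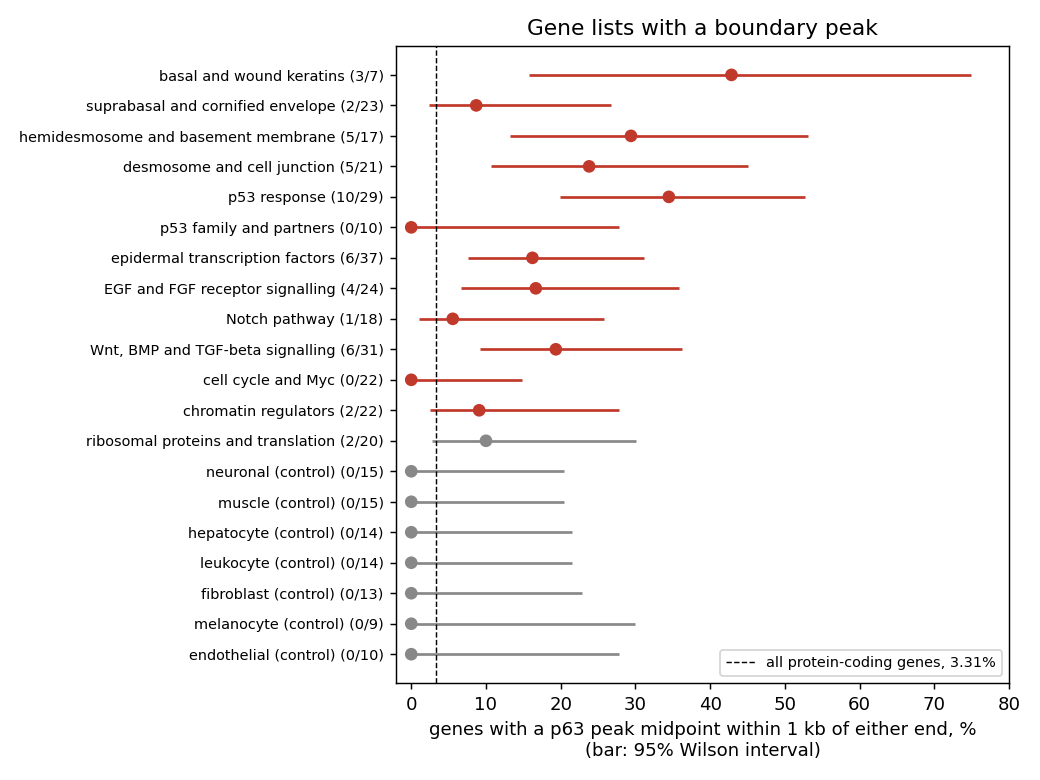
Share of genes in each of 20 lists with a p63 peak midpoint within 1 kb of either end, in percent, with 95% Wilson intervals (bars) and the number of genes beside each name. The dashed line is the 3.31% of all protein-coding genes. The p53 response list is at 34.5%. All 7 lists of other cell types are at 0, with intervals that include the dashed line. Lists were chosen with earlier results of these data known.

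Genes of the basal layer and its anchorage were the next group. Of 7 basal and wound keratin genes, 3 had a boundary peak (42.9%, interval 15.8 to 74.95). Krt5, the type II keratin gene of basal cells, had a peak of 863 bp outside its start, with the midpoint at 999 bp, barely within the rule. Krt6a had one of 218 bp at 202.5 bp and Krt15 one of 435 bp at 822 bp, both outside the gene. Krt14, the partner of Krt5 and also on the list, had none within 1 kb.

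Of 17 hemidesmosome and basement membrane genes, 5 had a boundary peak (29.4%, interval 13.3 to 53.1). Col17a1, the gene of a hemidesmosomal collagen, had a 457 bp peak over its start, 89 bp inside. Cd151, the gene of a tetraspanin that binds laminin-receptor integrins, had a 609 bp peak over its start at 122 bp. Of the integrin genes, Itga3 and Itgb4 had one each, at 906 bp inside the start and 270.5 bp inside a boundary of unknown strand. Lama5, which encodes a laminin chain, had 2, at 271 bp before and 835.5 bp inside its start. Fermt1, which encodes the integrin activator kindlin-1 and was in no list, carried the widest of all 642 peaks, 1188 bp, with its midpoint 715.5 bp inside the start.

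Of 21 genes of desmosomes and cell junctions, 5 had a boundary peak (23.8%, interval 10.6 to 45.1). Perp, a desmosomal target of p53 and p63, had 2 peaks, of 374 bp at 92.5 bp and 209 bp at 718 bp. The desmosomal cadherin genes Dsg3 and Dsc3 had a 506 bp peak at 602.5 bp and a 517 bp peak at 205 bp, and the plaque genes Pkp3 and Jup had theirs at 714 bp and 188.5 bp. The peak at Jup, which encodes plakoglobin, lay beyond the end of the gene. The suprabasal and cornified envelope list covers the upper epidermis. Of its 23 genes, 2 had a boundary peak (8.70%, interval 2.42 to 26.8, which includes the 3.31% of all genes). These were Casp14, a protease gene of cornification, with 381 bp over its start, and Abca12, a barrier lipid transporter gene, with 231 bp at 646 bp inside the start.

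Among transcription factors of the epidermis, 6 of 37 had a boundary peak (16.2%, interval 7.65 to 31.1). Foxn1, the nude gene, had a 673 bp peak over its start. Grhl3, needed for the skin barrier, had one 397.5 bp inside its start, and Zfp750, a driver of terminal differentiation, one of 650 bp at 597.5 bp outside a boundary of unknown strand. The AP-1 genes differed in place: the Junb peak was 675 bp beyond the end of the gene, and the Fosl1 peak 140 bp outside a boundary of unknown strand.

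In signalling, 6 of 31 genes of Wnt, BMP and TGF-beta pathways had a boundary peak (19.4%, interval 9.19 to 36.3). For EGF and FGF receptor signalling it was 4 of 24 (16.7%, interval 6.68 to 35.9). For the Notch pathway it was 1 of 18 (5.56%, interval 0.988 to 25.8), and that interval includes the 3.31% of all genes. Among ligands, Wnt3a and Wnt4 had a peak inside their start, at 621 bp and 596 bp, and Wnt10a had 2 at 1 boundary, at 164.5 bp and 629 bp. The ligand genes Tgfa and Tgfb1 had theirs beyond the gene's end, at 920 bp and 947.5 bp. Among receptors, Met, the hepatocyte growth factor receptor, had 1 at each end, 462.5 bp and 204.5 bp from it, both inside the gene, and Fzd6, a frizzled gene, had one of 424 bp across a boundary. Among feedback and target genes, Dusp6, an ERK phosphatase gene, had a peak over its start, Spry2 one at 686.5 bp beyond its end, Id2 one at 974 bp inside its start and Nrarp, a feedback inhibitor gene of Notch, one of 828 bp at 878.5 bp before its start.

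Lists of general cell functions held 0 to 2 genes with a boundary peak, and each interval includes the 3.31% of all genes. None of 22 cell cycle genes had one, with a Wilson interval of up to 14.9% and a limit of 13.6% at 3 counts. Of 22 chromatin regulators, 2 had one (9.09%, interval 2.53 to 27.8), Eed of the Polycomb complex PRC2 and the deacetylase gene Hdac2, and of 20 genes of ribosomal proteins and translation 2 had one (10%, interval 2.79 to 30.1), Rpl7 and Eef2. In the 7 lists of other cell types, 0 of 90 genes had a boundary peak (interval up to 4.09%, limit of 3.33% at 3 counts). That interval includes the 3.31% too, so the 0 cannot be told apart from the share of all genes. The 7 lists were of neuronal, muscle, hepatocyte, leukocyte, fibroblast, melanocyte and endothelial genes. For the shortest of them, with 9 genes, the interval reaches 29.9% and the limit at 3 counts 33.3%. The keratinocyte and regulator lists, without the ribosomal one, together gave 44 of 260 different genes (16.9%, interval 12.8 to 22.0).

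Most boundary peaks were at a single gene, while shared ones exceeded their part of the available bases. Of the 642 peaks, 565 were within 1 kb of 1 gene and 77 were shared (12%, interval 9.70 to 14.7), 74 of them by 2 genes and 3 by 3. Of all bases within 1 kb of a boundary, 7.58% are near 2 or more genes. This gives 13.7 peaks per Mb of shared bases and 8.22 per Mb of single ones. By the nearest boundary of each of the 2 nearest genes, 31 of the 77 were at a pair of starts, 13 at a start and an end, 12 at a pair of ends and 21 at a pair with an unknown strand. The shared bases were not divided in this way.

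The 3 peaks with 3 genes were at Naa38, Cyb5d1 and Tmem88 on chromosome 11, at 1700092M07Rik, Stx5a and Wdr74 on chromosome 19, and at Tbcb, Polr2i and Ovol3 on chromosome 7. Ovol3 belongs to the Ovol zinc finger family, and Polr2i encodes a subunit of RNA polymerase II. Pairs of starts included the histone genes H2bc22 and H2ac22, with a 292 bp peak 5.5 bp from the nearer start, and 1700007K13Rik with Mrps2, at 26 bp. The starts of Rnf123 and Mst1 shared 2 peaks, of 349 bp and 410 bp, with midpoints 698.5 bp apart. At Ltb4r1 and Adcy4, which encode a leukotriene receptor and an adenylate cyclase, a pair of ends shared a 458 bp peak. Zbtb32 and Kmt2b, a histone methyltransferase gene, shared one of 182 bp.

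Most of the 680 genes had 1 boundary peak. A total of 639 had 1, 40 had 2 and 1 gene, Lexm, had 3. Lexm had peaks of 324 bp and 258 bp at its end, 50.5 bp and 532.5 bp from it, and one of 346 bp at its start, 105.5 bp away. In 13 genes, different peaks marked the start and the end, or both boundaries where the strand was unknown. Besides Lexm, Sfn, Met, Bax and Bcl2l11, they included Il1f10, an interleukin-1 family gene of skin, with 379 bp over its start and 175 bp at 621 bp beyond its end, and Edaradd, the adaptor gene of the ectodysplasin receptor, with 201 bp at 30 bp from its start and 469 bp at 369 bp beyond its end. In 10 genes 1 peak was within 1 kb of both ends. Neighbouring peaks at 1 start were found at Pltp, a phospholipid transfer protein gene, where peaks of 247 bp and 483 bp had midpoints 545 bp apart, and at Tmem140, where 187 bp and 289 bp lay 456 bp apart. At a boundary of Mark4, a kinase gene of unknown strand here, 278 bp and 533 bp stood 887.5 bp apart.

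No difference in width between boundary peaks and the rest of the list was detectable. Boundary peaks were 309 bp wide at the median, from 161 to 1188 bp, and the middle 50% lay between 250 and 389.8 bp. The 7652 other peaks were 306 bp wide at the median, from 138 to 1494 bp. Of boundary peaks, 326 of 642 (50.8%) were wider than the 306 bp median of all, and of other peaks 3797 of 7652 (49.6%). The difference of 1.16 percentage points had an interval of -2.86 to 5.17 and did not pass the test (two-sided Fisher's exact test, p = 0.593, adjusted p = 0.89 over 6 tests). At starts, 173 of 329 were above that median (52.6%), and at ends 68 of 143 (47.6%), a difference of 5.03 points with an interval of -4.74 to 14.7 (Fisher's exact test, p = 0.319, adjusted p = 0.89). Shared and single peaks were at 50.6% and 50.8%, a difference of -0.147 points with an interval of -11.8 to 11.5 (Fisher's exact test, p = 1.0, adjusted p = 1.0). In such tests peaks count as independent, though they come from 1 list and neighbours share a locus.

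The widest boundary peaks were at genes of varied function. After Fermt1 came Sh3tc2 with 1145 bp across a boundary, Dcaf4, a ubiquitin ligase adaptor gene, with 907 bp over its start, and Krt5 with 863 bp. Inka1, whose product inhibits the kinase Pak4, had 831 bp over its start, Nrarp 828 bp, the palmitoyltransferase gene Zdhhc18 827 bp inside its end, and the adhesion receptor gene Adgrb1 825 bp across a boundary of unknown strand. Only 67 of the 642 were wider than 500 bp (10.4%), against 10.8% of other peaks.

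**Figure D3:**
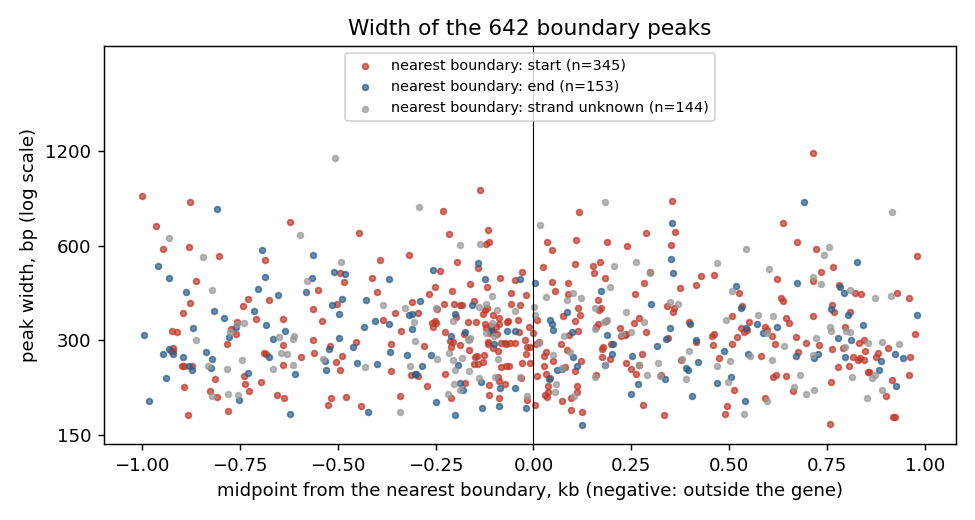
Width of each of the 642 boundary peaks in bp (vertical log axis) against the distance of its midpoint from the nearest boundary in kb (horizontal axis, negative outside the gene), coloured by whether that boundary is a start, an end or of unknown strand. The highest point is Fermt1 at 1188 bp, inside its start, and the lowest points are near 161 bp.

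No difference in company between boundary peaks and the rest was detectable. Of boundary peaks, 194 of 642 (30.2%, interval 26.8 to 33.9) had the midpoint of another peak within 10 kb, and of other peaks 2236 of 7652 (29.2%, interval 28.2 to 30.2). The difference of 0.997 points had an interval of -2.58 to 4.79 and did not pass the test (two-sided Fisher's exact test, p = 0.588, adjusted p = 0.89). The share was 30.6% for peaks between genes at 1 to 25 kb, 30.3% for peaks inside genes and 25.5% beyond 25 kb. From a boundary peak to its closest neighbour in the list the median was 26548 bp, and from any of the rest 28270.5 bp. Among boundary peaks, 137 had 1 other within 10 kb, 41 had 2, 9 had 3, 2 had 4 and 5 had 5. For 74 of the 194 with company it included another boundary peak. Peaks at the same boundary count each other here, and this share was not compared with other peaks.

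Peaks at starts had company less often than those at ends in these counts, and the difference did not pass the test after adjustment. Company was present for 82 of 329 at a start (24.9%, interval 20.6 to 29.9) and 49 of 143 at an end (34.3%, interval 26.99 to 42.4). Start minus end was -9.34 points, with an interval of -18.5 to -0.544 (two-sided Fisher's exact test, p = 0.044, adjusted p = 0.264). Shared peaks had company in 22 of 77 cases (28.6%) and single ones in 172 of 565 (30.4%), with an interval for the difference of -11.6 to 9.64 points (Fisher's exact test, p = 0.792, adjusted p = 0.951).

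The boundary peaks with most company lay in 2 places. On chromosome 4, the peaks at both ends of Sfn and 2 at the end of its neighbour Zdhhc18, of 310 bp and 827 bp, each had 5 others within 10 kb, 3 of them boundary peaks too. On chromosome 8, the 265 bp peak beyond Junb had 5 others and the 272 bp peak at the end of Prdx2, a peroxiredoxin gene, had 4. Dsg3 also had 4 others, and Col17a1 and both Perp peaks had 3. By contrast, no other peak was within 10 kb of those at Aen, Dusp6, Fermt1 or Nrarp.

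**Figure D4:**
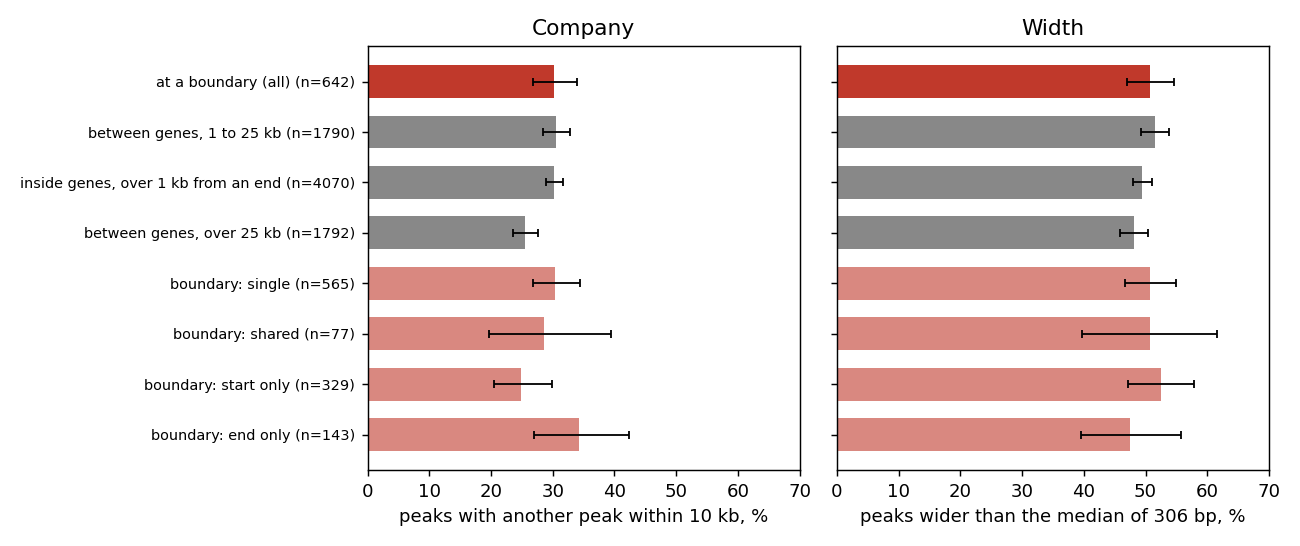
Share of peaks with another peak midpoint within 10 kb (left) and share wider than the 306 bp median (right), in percent from 0, for the 642 boundary peaks, the 3 other classes and 4 subsets of the boundary peaks, with 95% Wilson intervals as bars. Boundary peaks are at 30.2% and 50.8%. In the left panel the intervals for starts (20.6 to 29.9) and for ends (26.99 to 42.4) overlap. Such an overlap is not a test. The interval of the difference, start minus end, is -18.5 to -0.544 points (two-sided Fisher's exact test, p = 0.044, adjusted p = 0.264).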

How the data were processed

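The series has 10 ChIP-seq libraries in 5 groups; the file used, deposited by the authors, gives p63 peak positions that per the labels came from IDR (reproducibility across libraries) on MK1 and MK2. Its 3 columns are chromosome and 2 positions in bp, with no score. Bowtie 1.1.1, SAMtools 1.1 and mm10 are named in the submitters' processing notes. Peak caller and thresholds: not given in the sources used here. Per the labels' protocols, reads were single-end.

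Starts were made 1-based. Genes came from RefSeq GRCm38.p6: of 49943 rows on the chromosomes, 340 ending below 3 Mb (outside Y) were left out as scaffold positions. Strand and sequences came from the RefSeq promoter table, which matched 16457 of 20560 genes, none on chromosome 18. Gene extents hold every annotated transcript, so a boundary can be a rare one.

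Of 374 entries in 20 gene lists, Eda2r, Kdm6a and Syn1 did not match, since they are not on chromosomes 1 to 19. The members and lists were chosen with earlier results of these data known. Lists were described without a set test. Named genes were the nearest 8 and widest 8 peaks, genes with most peaks or genes, list genes, peaks with most company, those just inside and outside 1 kb, and genes with peaks at both ends, with ties taken by chromosome and position. 1 listed gene is not reported here. Bbs2, Dennd4a, Edaradd, Krt14 and Mcm7 and the family and X-linked examples are outside that rule and were picked after their values were seen.

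Differences were tested with Fisher's exact test (scipy 1.17.1, Python 3.11.15), adjusted by Benjamini-Hochberg over 6 tests (statsmodels 0.14.6), with Newcombe intervals, and the code was tested on simulated data. Depth is unknown.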

Additional observations from a re-analysis of the deposited data

Results flagged for a closer look

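Chromosomes X and Y were outside the rule, yet they held peaks of the same kind: 16 of their 157 p63 peaks had a midpoint within 1 kb of a protein-coding gene boundary (10.2%, interval 6.37 to 15.9). They were looked at because a signal appeared in data that no comparison used. The genes included Eda2r, a p53 target gene and ectodysplasin receptor, Flna, which encodes filamin A, Gpc4, a glypican gene, and Pof1b. The difference from the 7.74% on chromosomes 1 to 19 was not tested.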

How the results depend on the processing

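None of the 20 alternatives to the Fisher tests passed the threshold, with adjusted p from 0.108 to 1.0. The sign turned in 6 of them, all where the main odds ratio was close to 1, and kept its side in the others. For company, the odds ratio of 1.05 became 0.965 with boundaries within 500 bp and 0.984 against peaks between genes at 1 to 25 kb, but stayed at 1.03 to 1.27 under the other settings. For width, 1.05 became 0.969 against those peaks, 0.933 with the upper quartile as limit and 0.964 with 500 bp, but was 1.11 and 1.08 with boundaries within 500 bp and 2 kb. Width of shared against single went from 0.994 to 1.24 when sharing meant 500 bp, and was 0.891 at 2 kb and 0.979 with all annotated genes. The cause was not tested. Company within 5 kb gave 22.4% against 18.5% (Fisher's exact test, p = 0.0179, adjusted p = 0.108). The share of the list moved by construction with the rule: 4.59% within 500 bp, 13% within 2 kb, 8.66% for any base within 1 kb, 2.17% for peaks that cover the boundary and 12.5% with all annotated genes. Shared peaks were 5.3% at 500 bp, 20.6% at 2 kb and 21.3% with all annotated genes. Keratinocyte and regulator list genes with a peak fell from 44 to 24 of 260 within 500 bp, beside 401 of 20560 genes. Within 2 kb, 60 of 260 had one, and 2 of 90 genes of other cell types did, beside 1143 of 20560 genes. The share at starts stayed between 67.8% and 72.8% with the other distances, of which 2 kb was chosen after seeing the data, and when the nearest boundary decided. No paired analysis was possible because both p63 libraries entered 1 list. Unknown depth means that a boundary without a peak can have too few reads.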

Other observations

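Gene families differed in how often a boundary peak was found. Families were picked by symbol after other results were seen, and no test was run. Olfactory receptor genes had one in 2 of 1103 cases (0.181%, interval 0.0497 to 0.659) and vomeronasal receptor genes in 0 of 351, against 3.31% of all protein-coding genes. Of 15 S100a calcium-binding protein genes, 3 had one (20%, interval 7.05 to 45.2), namely S100a2, S100a11 and S100a16. Serpin genes were at 6 of 62 (9.68%, interval 4.51 to 19.55), Dusp genes at 3 of 22 (13.6%, interval 4.75 to 33.3) and Klf genes at 2 of 16 (12.5%, interval 3.50 to 36.0). Zinc finger genes named Zfp were at 11 of 391 (2.81%, interval 1.58 to 4.97), and the Slc transporter genes at 12 of 376 (3.19%, interval 1.83 to 5.50). The intervals of Zfp, Slc and the remaining families counted, keratins among them, include the 3.31% of all genes.

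Non-coding genes met some of the same boundaries. Of the 642 peaks, 56 (8.72%, interval 6.78 to 11.2) were also within 1 kb of either boundary of a long non-coding RNA gene, a share that was not compared with other peaks. A 268 bp peak near Mcm7, which encodes a replication helicase subunit, was within 1 kb of boundaries of Mir106b, Mir93 and Mir25, the microRNA genes in its introns.

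Some annotated starts lie well inside a gene. The promoter table held 3120 starts more than 2 kb into their gene, and 74 of the 4070 peaks inside genes (1.82%, interval 1.45 to 2.28) were within 1 kb of one. That share was not compared with the share of bases inside genes near such starts.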
